A study of Homo sapiens with 12 samples.

Results

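Amino acid transporters are membrane proteins that carry amino acids into and out of cells. The 10 described here were chosen by name as the carriers of the large neutral, small neutral, cationic and glycine routes. Each gene is represented by the probe set with the highest mean over all arrays among those annotated to 1 gene symbol, and the 10 members were set among 19775 genes measured in this way. Their mRNA was measured on 12 Affymetrix HG-U133 Plus 2.0 arrays with total RNA of Hs578T and BT-20, both established human breast cancer lines. All cells had been treated for 24 h with a DNA oligonucleotide at 200 nM together with the liposomal transfection reagent DOTAP, so all groups share the reagent, and no array of untreated cells or of reagent alone was used here. The cells grew in MEM with serum and added L-glutamine, which is itself carried by several of the members. In each line, CDH13 M (a double-stranded oligonucleotide from exon 1 of CDH13, methylated at its CpG cytosines) and CDH13 U (the same without methylation) had 2 arrays each, and the single-stranded ODN2006 and its GpC control had 1 array each. The M and U arrays belong to set 1 and set 2, which the labels call biological replicates. By their array names set 1 was one array batch, and set 2 with the ODN arrays another, and the ODN arrays carry no set number. The labels do not say whether the replicates came from separate cultures, so p-values measure the spread between these arrays.

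As background, SLC7A5 (LAT1) is the light chain of system L, which exchanges glutamine and other amino acids inside the cell for leucine, phenylalanine and further large neutral amino acids outside. It reaches the membrane bound to the heavy chain SLC3A2 (CD98), which SLC7A8 (LAT2) also uses, whereas SLC43A1 (LAT3) carries large neutral amino acids without it. SLC1A5 (ASCT2) and SLC1A4 (ASCT1) exchange small neutral amino acids with sodium, glutamine above all for SLC1A5 and serine and alanine for SLC1A4. SLC38A1 and SLC38A2 (SNAT1 and SNAT2) are system A carriers that bring in glutamine and alanine with sodium, SLC7A1 (CAT1) carries arginine and lysine, and SLC6A9 (GLYT1) carries glycine. Several of these genes, SLC7A5, SLC3A2, SLC1A4 and SLC7A1 among them, are known targets of ATF4, the transcription factor that is translated when amino acids run short or unfolded protein collects in the endoplasmic reticulum.

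The treatments are shown by sequence because they define the groups within a line. CpG dinucleotides are in capitals (GpC in the control), and each strand holds 4 of them. In M, the cytosines of all 4 CpGs are methylated in each strand.
ODN2006: tCGtCGttttgtCGttttgtCGtt
ODN2006 control: tGCtGCttttgtGCttttgtGCtt
CDH13 M and U, first strand: tCGgatCGccCGgcaCGggcagggtgaggg
CDH13 M and U, complementary strand: ccctcaccctgccCGtgcCGggCGatcCGa

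The arrays were alike in scale, with medians between 3.01 and 3.09 on the log2 GCRMA scale and 33.9% to 35.0% of the probe sets at 5 or above. The correlation of 2 arrays over all probe sets lay between 0.985 and 0.998 within a line and between 0.887 and 0.906 across lines. The labels of the lines were checked against marker genes: all 19 mesenchymal markers tested were higher and all 16 epithelial markers tested were lower in Hs578T than in BT-20 (median log2 differences of 8.41 and -6.55). On this scale a difference of 1 is a doubling. A gene was tested in a comparison if at least 2 of its arrays were at 5 or above. In each BT-20 array 6 of the mesenchymal markers reached 5, and in each Hs578T array 4 to 5 of the epithelial ones. Most markers thus passed this filter through 1 line alone and had to differ, so only their direction bears on the labels, and the sizes rest on dim values. Of all genes tested, 34.4% were higher and 40.2% lower in Hs578T at an adjusted p under 0.05 in limma.

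Of the 10 transporters, 7 were at 5 or above in all 12 arrays. SLC6A9 was above 5 in the 6 Hs578T arrays and below it in all BT-20 arrays. SLC43A1 and SLC7A8 were below 5 in all arrays and were not tested, which leaves 8 measured members. SLC43A1 lay between 4.13 and 4.61 in Hs578T and between 3.09 and 3.44 in BT-20. SLC7A8, represented by the highest of its 5 probe sets, lay between 3.91 and 4.40 in Hs578T and between 3.59 and 4.08 in BT-20. The values of SLC43A1 did not overlap between the lines and those of SLC7A8 did, but at these levels a dim signal cannot be told from background.

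**Figure D1:**
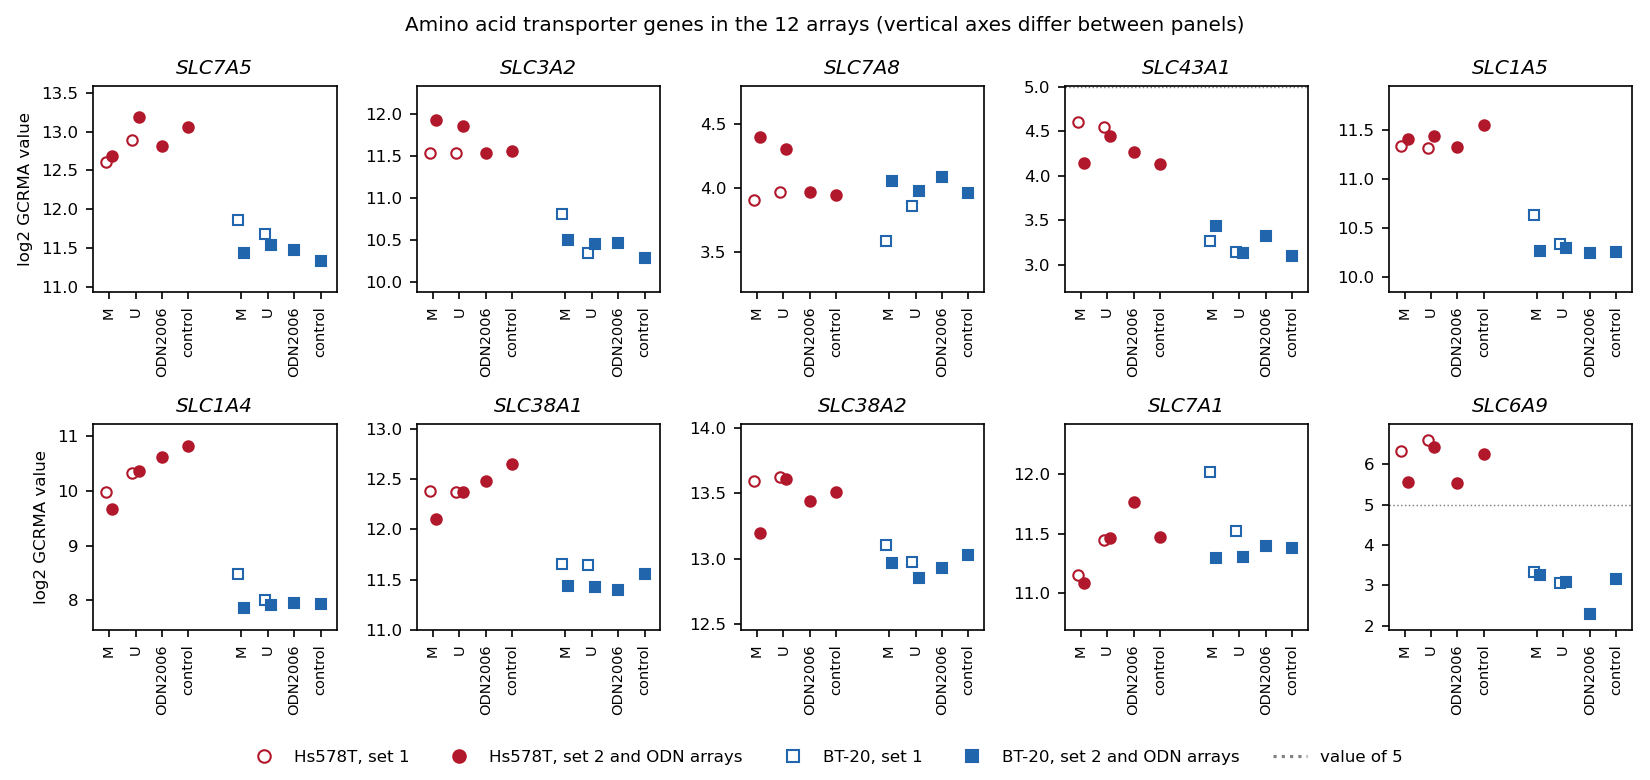
Log2 GCRMA value (vertical axis, scaled separately for each gene) of the 10 transporters in 12 arrays by oligonucleotide (horizontal axis), with Hs578T as circles on the left and BT-20 as squares on the right, with open symbols for set 1 and filled ones for the remaining arrays. In 8 of the 10 panels all Hs578T points lie above all BT-20 points, the exceptions being SLC7A8 and SLC7A1, and the dotted line marks a value of 5.

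The transporters differed mainly between the cell lines. Comparing Hs578T with BT-20 over the 8 M and U arrays, 7 of the 8 measured members were higher in Hs578T at an adjusted p under 0.05 (limma, Benjamini-Hochberg over 10410 genes) and none was lower. The lines differ widely, and 34.4% of all genes tested were called higher in Hs578T and 40.2% lower, so that 74.6% were called in either direction. SLC6A9 passed the filter through Hs578T alone and therefore had to differ, which leaves 6 of the 7 members that were above 5 in every array. The median log2 difference of the 8 members, SLC6A9 included, was 1.09, against -0.09 for all genes tested. RNA was measured from whole cultures, in which fewer cells expressing a gene and less RNA per cell cannot be told apart.

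Both partners of the system L exchanger were higher in Hs578T. SLC7A5 was at 12.62 and 12.68 with M and at 12.90 and 13.19 with U in Hs578T cells, against 11.86 and 11.44 with M and 11.68 and 11.54 with U in BT-20 cells (set 1 and set 2 in this order, as in the values that follow). Its lowest Hs578T value lay above its highest BT-20 value, with a log2 difference of 1.21 (SE 0.13, 2.32-fold, adjusted p = 0.000161 in limma). SLC3A2 was at 11.54 and 11.94 with M and at 11.54 and 11.86 with U in Hs578T, against 10.82 and 10.50 with M and 10.35 and 10.46 with U in BT-20. The difference of 1.19 (SE 0.14, 2.28-fold, adjusted p = 0.000266 in limma) was close to that of its light chain. Within the sets the difference was 0.98 in set 1 and 1.45 in set 2 for SLC7A5, and 0.96 and 1.42 for SLC3A2, so the difference was larger in set 2 for both partners, which was not tested.

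The sodium-dependent exchangers were also higher in Hs578T, SLC1A4 by the larger amount. SLC1A4 was at 9.97 and 9.68 with M and at 10.32 and 10.37 with U in Hs578T, against 8.49 and 7.85 with M and 8.01 and 7.91 with U in BT-20. The log2 difference was 2.02 (SE 0.16, 4.06-fold, adjusted p = 3.37e-05 in limma). Of its 5 probe sets 4 had a mean of at least 5, and all 4 gave a difference between 2.02 and 2.48. SLC1A5 was at 11.33 and 11.41 with M and at 11.31 and 11.44 with U in Hs578T, against 10.63 and 10.27 with M and 10.33 and 10.30 with U in BT-20. Its difference was 0.99 (SE 0.11, 1.99-fold, adjusted p = 0.000189 in limma), and it varied little within a line.

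The system A carriers showed smaller differences, and those of SLC38A1 depended on the probe set. SLC38A1 was at 12.38 and 12.10 with M and at 12.37 and 12.38 with U in Hs578T, against 11.65 and 11.44 with M and 11.65 and 11.43 with U in BT-20, a log2 difference of 0.77 (SE 0.11, 1.70-fold, adjusted p = 0.000776 in limma). Of its other probe sets, 1 gave 0.83, and 1 with a mean of 10.6 over the arrays gave -0.14 (95% CI -0.42 to 0.13, adjusted p = 0.296 in limma over all probe sets with 1 gene). The higher value in Hs578T therefore holds for 2 of the 3 probe sets of SLC38A1 with a mean of at least 5. SLC38A2 was at 13.59 and 13.20 with M and at 13.63 and 13.60 with U in Hs578T, against 13.11 and 12.97 with M and 12.98 and 12.86 with U in BT-20. The groups were close but did not overlap, the difference was 0.53 (SE 0.12, 1.44-fold, adjusted p = 0.00523 in limma), and its 3 probe sets gave 0.53 to 0.68.

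SLC7A1, the carrier of arginine and lysine, did not follow the others. It was at 11.15 and 11.09 with M and at 11.44 and 11.47 with U in Hs578T, against 12.02 and 11.30 with M and 11.52 and 11.31 with U in BT-20. These values overlapped, and the log2 difference of -0.25 (95% CI -0.65 to 0.15) did not pass the test (adjusted p = 0.216 in limma). Its other 3 probe sets with a mean of at least 5 gave -0.47 to -0.62, and for 1 of them (at -0.54) the difference passed with an adjusted p of 0.0240 in limma over all probe sets. In set 1 the difference was -0.47 and in set 2 it was -0.02. The value of 12.02 in the BT-20 array with M in set 1 was the highest of the 12.

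SLC6A9, the glycine carrier, differed most clearly in detection. It was at 6.34 and 5.57 with M and at 6.60 and 6.42 with U in Hs578T, against 3.33 and 3.25 with M and 3.06 and 3.07 with U in BT-20. The fitted log2 difference was 3.05 (SE 0.17, adjusted p = 7.06e-06 in limma). Since SLC6A9 passed the filter through Hs578T alone, this p-value is no evidence of a difference. Because the BT-20 values lie among the dim ones, the size of the difference is not known. The mean of the Hs578T M and U arrays (6.23) lay 2.35-fold above the filter value of 5. This has no interval, and the lowest of these arrays was at 5.57.

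The arrays with single-stranded oligonucleotides did not enter that comparison. For SLC1A4 the log2 difference between Hs578T and BT-20 was 2.67 with ODN2006 and 2.90 with the control, for SLC7A5 it was 1.34 and 1.72, and for SLC3A2 it was 1.08 and 1.28. For SLC7A1 it was 0.37 with ODN2006 and 0.09 with the control, opposite in sign to the M and U arrays. With 1 array per group these values have no replicates. Over all 12 arrays, the 6 Hs578T values lay above the 6 BT-20 values for 7 of the 8 measured members, or 6 of the 7 above 5 in every array, and for 29.1% of all genes that passed the filter over the 12 arrays. They also did for SLC43A1, at dim values.

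Other carriers of amino acids were less uniform. Of 29 further transporter genes, 17 were tested, and 8 were higher and 7 lower in Hs578T, with a median log2 difference of 0.37. Those with the smallest p were SLC1A1, a carrier of glutamate and aspartate (7.50), SLC7A2, a carrier of cationic amino acids related to SLC7A1 (6.52), SLC38A9, which senses arginine at the lysosome (1.97), and SLC7A6, a light chain of the exchanger for cationic and neutral amino acids (-2.00). Of 28 genes of the ATF4 response other than transporters, 19 were higher and 5 lower in Hs578T, with a median of 1.14. Of 27 genes of glutamine metabolism and amino acid sensing, 8 were higher and 11 lower, with a median of -0.08.

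The design asks mainly whether methylated and unmethylated oligonucleotides lead to different expression. No transporter was called between M and U. In limma 0 of 10410 genes passed the threshold in any of the 4 contrasts (percent called 0 in each). At an unadjusted p under 0.05 there were 680 genes in Hs578T, 174 in BT-20, 543 when the lines were averaged and 258 for the contrast of the lines, and none of them was a member. These counts and the intervals that follow are from the fit without set as a block. With the block 0 genes were called too, but the unadjusted counts were 1464, 508, 1266 and 741. They then held SLC6A9 (-0.56, SE 0.17), SLC7A5 (-0.39, SE 0.13) and SLC1A4 (-0.52, SE 0.17) in Hs578T, with an adjusted p of 0.296, 0.311 and 0.312 in limma. They also held SLC6A9, SLC1A4 and SLC7A1 in the contrast of the lines. The sizes can be given with their intervals, and they ran in opposite directions in the lines. Since no call was made, these are measured differences and not changes.

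In Hs578T, 7 of the 8 measured members had a mean with M below that with U, with a median log2 difference of -0.28 against -0.01 for all genes tested. The largest differences were -0.56 for SLC6A9 (SE 0.25, 95% CI -1.14 to 0.03), -0.52 for SLC1A4 (SE 0.23, 95% CI -1.06 to 0.02), -0.39 for SLC7A5 (SE 0.19, 95% CI -0.84 to 0.05) and -0.34 for SLC7A1 (SE 0.24, 95% CI -0.90 to 0.23). Their adjusted p in limma lay between 0.753 and 0.880. For these 4 genes and SLC38A2 both M arrays were below both U arrays, 5 of 8 members against 20.2% of all genes tested. SLC3A2 did not go with its light chain SLC7A5, its difference being 0.04 (95% CI -0.44 to 0.52), and that of SLC1A5 was -0.01 (95% CI -0.38 to 0.37).

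Taken by set, most of these differences were larger in set 2, which was not tested. M minus U was -0.26 in set 1 and -0.86 in set 2 for SLC6A9, -0.35 and -0.69 for SLC1A4, and -0.28 and -0.50 for SLC7A5. For SLC7A1 it was -0.29 and -0.38, nearly the same in both sets. SLC38A2, at -0.04 and -0.41, and SLC38A1, at 0.01 and -0.27, were near 0 in set 1. The Hs578T array with M in set 2 was the lowest of the 6 Hs578T arrays for SLC1A4, SLC38A1, SLC38A2 and SLC7A1, that is for 4 of 8 members, and for 19.7% of all genes.

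In BT-20 the same genes lay the other way. All 8 members had a mean with M above that with U, with a median log2 difference of 0.17 against -0.0030 for all genes tested, and none passed the test. SLC3A2 had the largest difference (0.25, 95% CI -0.23 to 0.74), followed by SLC7A1 (0.25, 95% CI -0.32 to 0.82), SLC6A9 (0.22, all BT-20 values below 5), SLC1A4 (0.21, 95% CI -0.33 to 0.75), SLC1A5 (0.14, 95% CI -0.24 to 0.51) and SLC38A2 (0.12, 95% CI -0.27 to 0.51). SLC7A5 (0.04) and SLC38A1 (0.01) differed least, and the adjusted p was 1.00 for each member in limma.

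This direction in BT-20 came mostly from 1 array. The array with M in set 1 was the highest of the 6 BT-20 arrays for all 8 measured members, SLC6A9 with its dim values included, against 29.9% of all genes. In set 1, M minus U was 0.50 for SLC7A1, 0.48 for SLC1A4, 0.46 for SLC3A2, 0.30 for SLC1A5 and 0.18 for SLC7A5. In set 2 it was -0.01, -0.06, 0.05, -0.03 and -0.10 for the same genes, so that 8 of 8 members were higher with M in set 1 and 4 of 8 in set 2. SLC38A2 (0.13 in set 1 and 0.11 in set 2) and SLC6A9 (0.27 and 0.17, at dim values) were above 0 in both sets. Without that array the difference between M and U in BT-20 was negative for SLC7A1, SLC1A4, SLC1A5 and SLC7A5, at -0.05 to -0.17. It was also -0.10 for SLC38A1, whose M minus U was near 0 in both sets. For each of these genes the remaining M array of set 2 is then set against the U arrays of both sets. These values therefore also hold the difference between the sets. Of 28 genes of the ATF4 response, none of them a transporter, 0 were called for M against U. In BT-20 their median M minus U was 0.47 in set 1, with 23 of 28 above 0, against 0.0056 for all 10410 genes tested, with 5420 above 0. In set 2 it was 0.08, with 17 of 28 above 0. In Hs578T the medians of the 28 genes were -0.08 and -0.03. The part of these genes in the result was not tested.

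The difference of M minus U between the lines, Hs578T minus BT-20, was below 0 for all 8 members (median -0.39, against -0.01 for all genes tested). It was -0.78 for SLC6A9, -0.73 for SLC1A4 (SE 0.32, 95% CI -1.49 to 0.03), -0.58 for SLC7A1 (SE 0.34, 95% CI -1.39 to 0.22) and -0.43 for SLC7A5 (SE 0.26, 95% CI -1.06 to 0.20). None passed the test, with an adjusted p of 0.999 for each in limma. For the 17 other transporter genes tested, the median was -0.10, with 9 below 0.

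**Figure D2:**
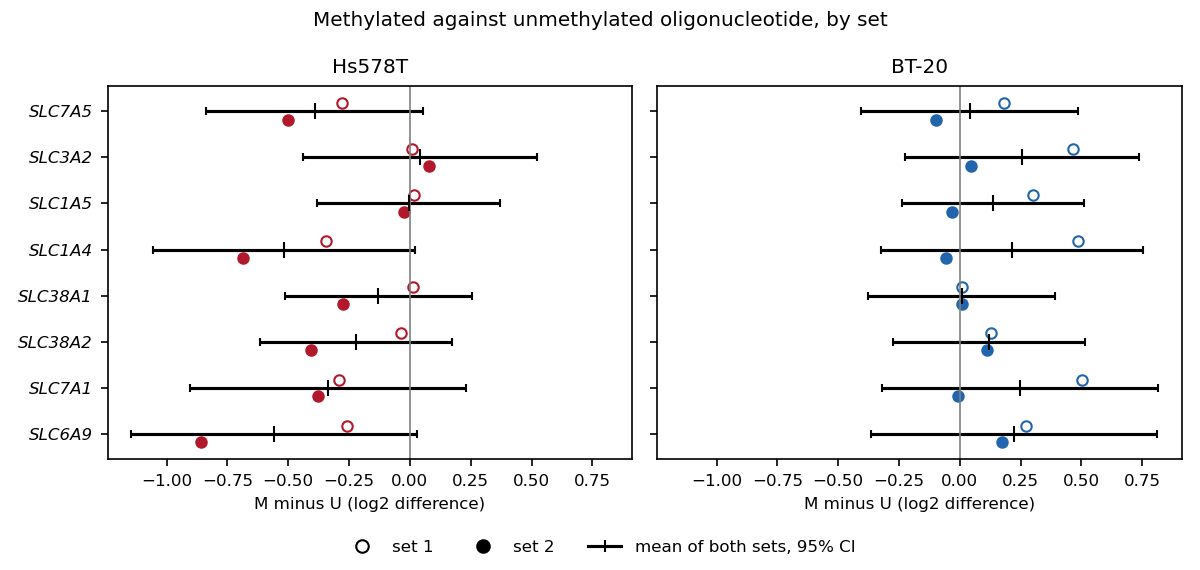
Log2 difference between M and U (horizontal axis) for the 8 measured transporters (vertical axis) in Hs578T on the left and BT-20 on the right, in set 1 (open) and set 2 (filled), with the mean of both sets and its 95% confidence interval. The intervals are from the fit without set as a block, and all include 0. With the block, those of SLC7A5, SLC1A4 and SLC6A9 in Hs578T did not, though no gene was called. In BT-20 the points of set 1 lie above 0 for all 8 genes while those of set 2 lie between -0.10 (SLC7A5) and 0.17 (SLC6A9).

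The promoters of all 10 members were searched for the core of the C/EBP-ATF composite element, and those that hold it are shown. ATF4 binds to this element with a C/EBP partner. A link between this element and the measured values was not tested. The letters TGATGNAA were searched on both strands of the RefSeq promoter windows of GRCh38.p14, which run from 250 bases before to 50 bases after each start site. They stood in 5 of the 20 promoters of the members (25.0%), 1 in each of 5 genes, and in 3.62% of all 35116 promoters. The windows of 30 bases below are written 5′ to 3′ on the strand of the gene with the match in capitals, TTNCATCA being the same letters read on the other strand. The start of the match lay 7 bases before the start site in SLC1A4, 4 bases before it in SLC38A1 and 97 bases before it in SLC1A5, and in SLC3A2 and SLC7A1 it lay after it.
SLC1A4, chr2:64989381-64989410, plus strand: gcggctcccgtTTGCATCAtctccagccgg
SLC3A2, chr11:62881719-62881748, plus strand: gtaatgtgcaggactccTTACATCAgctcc
SLC38A1, chr12:46266502-46266531, minus strand: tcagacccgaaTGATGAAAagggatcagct
SLC7A1, chr13:29595663-29595692, minus strand: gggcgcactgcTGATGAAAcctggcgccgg
SLC1A5, chr19:46784893-46784922, minus strand: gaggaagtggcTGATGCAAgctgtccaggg
A match is a description of the sequence only, and binding was not measured. In SLC7A5, SLC38A2, SLC6A9, SLC43A1 and SLC7A8 the letters are not in the windows searched.

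ODN2006 is a CpG oligodeoxynucleotide that stimulates TLR9, and its control has GpC in place of CpG. Each had 1 array per line, so the spread was taken from the replicated M and U groups. Over both lines 1 of 10543 genes was called (0.00948%), and it was no transporter. For SLC6A9 the ODN2006 array read 5.52 and the control array 6.24 in Hs578T, and in BT-20 they read 2.29 and 3.16. Its value with ODN2006 was the lowest of each line, as it was for 32.9% of all genes in Hs578T and 23.0% in BT-20. The log2 difference over both lines was -0.80 (SE 0.25, 95% CI -1.39 to -0.21), with an unadjusted p of 0.0153 and an adjusted p of 0.935 in limma. An unadjusted p under 0.05 was found for 490 of the 10543 genes. The BT-20 contribution to this difference lies at dim values, and the value of 5.57 with M in set 2 of Hs578T was nearly as low as that with ODN2006.

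The other 7 members differed between ODN2006 and its control by -0.16 to 0.16 over both lines. In Hs578T, ODN2006 minus control was 0.30 for SLC7A1, -0.24 for SLC7A5, -0.22 for SLC1A5 and -0.21 for SLC1A4. In BT-20 it was 0.02, 0.14, -0.01 and 0.02 for the same genes. The differences thus had the same sign in both lines for SLC7A1 and SLC1A5 but not for SLC7A5 and SLC1A4, and none passed the test (adjusted p = 0.999 for each in limma).

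The ODN arrays were also compared with the M and U arrays of set 2, which share their array batch. Here ODN2006 and its control were joined, as were M and U, and the M and U arrays are the same as in the comparisons above. The spread in this test is therefore that between arrays of different oligonucleotides within a line. No oligonucleotide was repeated within a line, so the spread between repeated cultures was not measured. The standard errors, intervals and p-values of this comparison do not cover it. The ODNs differ from M and U in sequence and strandedness, and the cultures may differ too, which cannot be told apart. In Hs578T, 3.87% of 10375 genes were called higher and 5.16% lower with the ODNs, 9.03% in either direction, and in BT-20 0 genes were called (534 at an unadjusted p under 0.05). Of the 8 measured transporters 0 were called in either line.

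SLC1A4 came nearest. In Hs578T it had 10.62 (ODN2006) and 10.83 (control), against 9.68 with M and 10.37 with U of set 2. Both ODN values were above both others and also above those of set 1, and the log2 difference was 0.70 (SE 0.22, 95% CI 0.18 to 1.22, adjusted p = 0.0912 in limma). The value depended on which array stood for set 2. Without the M array it was 0.36 (adjusted p = 0.183 in limma) and without the U array 1.04 (adjusted p = 0.0147 in limma), the lone array being assumed to vary like the other groups. Over all leave-outs of 1 array the adjusted p ran up to 0.221. In BT-20, SLC1A4 had 7.95 (ODN2006) and 7.92 (control), against 7.85 with M and 7.91 with U of set 2. This was a difference of 0.05 (95% CI -0.46 to 0.57). The 4 probe sets of SLC1A4 with a mean of at least 5 gave 0.59 to 0.84 in Hs578T and 0.05 to 0.41 in BT-20. The probe set used gave the lowest of these values in BT-20.

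SLC3A2 lay on the other side. In Hs578T it had 11.54 (ODN2006) and 11.57 (control), against 11.94 with M and 11.86 with U of set 2, a log2 difference of -0.35 (SE 0.11, 95% CI -0.60 to -0.09, adjusted p = 0.0923 in limma). The M and U arrays of set 1 were both at 11.54, the level of the ODN arrays, so this difference was that of set 2 from all other Hs578T arrays. SLC7A5, with 12.82 (ODN2006) and 13.06 (control) against 12.68 with M and 13.19 with U of set 2, differed by 0.00 (95% CI -0.44 to 0.44).

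SLC7A1 had 11.77 (ODN2006) and 11.47 (control) in Hs578T, and 11.40 and 11.38 in BT-20. Against M and U of set 2 the log2 difference was 0.34 in Hs578T (SE 0.16, 95% CI -0.04 to 0.73) and 0.09 in BT-20 (95% CI -0.30 to 0.47). SLC38A1 had 12.48 (ODN2006) and 12.65 (control) in Hs578T, both above M and U of set 2, with a difference of 0.32 (SE 0.13, 95% CI 0.0041 to 0.65, adjusted p = 0.166 in limma). In BT-20 it was at 11.40 and 11.55, with a difference of 0.04. The 3 probe sets of SLC38A1 with a mean of at least 5 gave 0.04 to 0.32 in Hs578T and -0.19 to 0.04 in BT-20. For SLC1A5 (11.32 and 11.55 in Hs578T, 10.25 and 10.26 in BT-20) and SLC38A2 (13.44 and 13.51 in Hs578T, 12.93 and 13.03 in BT-20) the differences lay between -0.03 and 0.08 in both lines. Both ODN arrays were above M and U of set 2 for 3 of 8 members in Hs578T (21.9% of all genes) and for 2 of 8 in BT-20 (21.5%), and below them for 1 of 8 in each line (32.1% and 20.3%).

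Among the 17 other transporter genes tested, 0 were called higher with the ODNs in Hs578T (3.87% of all genes tested) and 2 lower (5.16%). These 2 were SLC25A12, the mitochondrial carrier of aspartate and glutamate (-0.72, adjusted p = 0.0284 in limma), and SLC1A1 (-0.80, adjusted p = 0.0481 in limma).

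**Figure D3:**
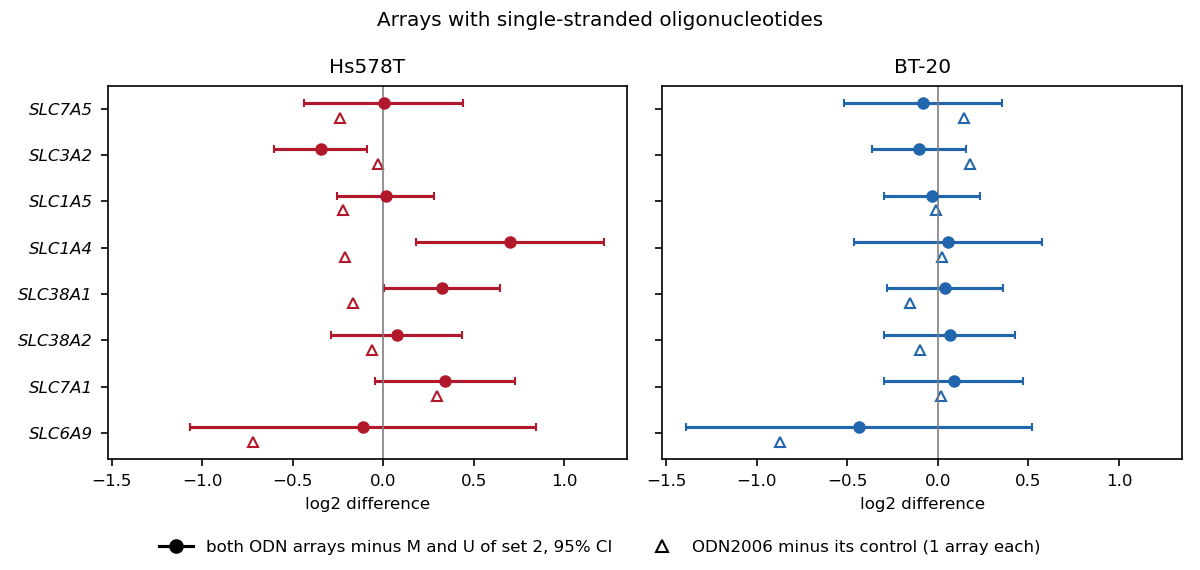
Log2 difference (horizontal axis) of both ODN arrays against M and U of set 2, with its 95% confidence interval (points), and of ODN2006 against its control (triangles, 1 array each), for the 8 measured transporters (vertical axis) in Hs578T on the left and BT-20 on the right. In Hs578T the points of SLC1A4 (0.70) and SLC3A2 (-0.35) lie farthest from 0, and in both lines the triangle of SLC6A9 is the lowest.

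When each line was centred on its own mean, the members differed in how much they varied with treatment and set. The range of the centred values over the 12 arrays was 1.15 for SLC1A4, wider than for 77.3% of all genes, and 1.22 for SLC6A9, whose lowest values in BT-20 are dim. It was 0.85 for SLC7A1, 0.57 for SLC7A5, 0.55 for SLC38A1, 0.53 for SLC3A2 and 0.43 for SLC38A2. For SLC1A5 it was 0.39, and only 11.8% of genes had a narrower range. The array with the highest centred value was not the same for all members. It was the BT-20 array with M of set 1 for SLC7A1, SLC3A2 and SLC1A5. For SLC1A4 and SLC38A1 it was the Hs578T array with the ODN2006 control. For SLC7A5 it was the Hs578T array with U of set 2, and for SLC38A2 and SLC6A9 that with U of set 1. Some of these lay close to the value in the BT-20 array with M of set 1. The values were 0.311 and 0.307 for SLC7A5, 0.132 and 0.129 for SLC38A2, and 0.53 and 0.47 for SLC1A4.

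Likeness of pattern was measured as the root mean square difference of centred values over the 12 arrays. SLC1A4 and SLC7A1 were 0.165 apart, nearer to each other than to a flat line (0.310 and 0.239). SLC7A5 and its heavy chain SLC3A2 were 0.192 apart, no nearer than either to a flat line (0.186 and 0.168). The system A carriers SLC38A1 and SLC38A2 were 0.115 apart, about as far as SLC38A2 from a flat line (0.118). Among 10542 genes, the nearest to SLC1A4 were SNX24 (0.100), C1orf198 (0.119) and MACF1 (0.123), with 0.310 for SLC1A4 against a flat line. The nearest to SLC7A1 were MET (0.0900), TTPAL (0.0993) and ZNHIT6 (0.104), against 0.239 for a flat line. For SLC6A9 they were TUB (0.182), ZNF319 (0.184) and MBLAC2 (0.196), against 0.382, and 6 of its 12 values are dim. The arrays share batches, so these are descriptions over 12 arrays only.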

How the data were processed

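Per the labels, the 12 arrays were hybridised with biotinylated total RNA of Hs578T and BT-20 cells. The deposited values are log2 GCRMA values, which the authors computed in R 2.4, and whether all arrays were normalized together is not given in the sources used here. The probe table assigns 1 gene to 41097 of the 54675 probe sets, several genes to 1801 and no gene to 11777, and 41043 took a current symbol from RefSeq (GRCh38.p14) by gene ID. All 10 members were matched. The number of arrays limits the precision.

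Comparisons used limma 3.58.1 in R 4.3.3 (group means, contrasts, eBayes), with Benjamini-Hochberg adjustment over all genes at 5 or above in at least 2 arrays of a comparison and a threshold of 0.05. M, U and line contrasts used 8 arrays with 4 residual degrees of freedom. The study's text does not describe these arrays. The members, taken by name, and the gene lists and tests were chosen with earlier results of these data known. All members are named, with the 3 genes nearest in pattern to the 3 members of widest range, and up to 4 other transporters with the smallest p. Alternatives were quantile normalization, centring on 10 housekeeping genes, no filter, the mean of all probe sets, trended and robust variance, the replicate block, M and U of both sets, and leaving out arrays. Results of single probe sets were added after seeing the data.

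Whether sets pair M and U arrays was checked through the deviations from the group means over 10410 genes. In the same set these correlated at 0.599 between M and U in Hs578T and at 0.595 in BT-20, but at 0.0984 to 0.131 between lines. Within a line, M and U of the same set thus deviated alike, which the fit without the block leaves in the spread.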

Additional observations from a re-analysis of the deposited data

Results flagged for a closer look

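Between the lines, M minus U had opposite signs in every set for SLC6A9 and SLC38A2. For SLC6A9, Hs578T had -0.26 (set 1) and -0.86 (set 2), BT-20 had 0.27 and 0.17, and the difference of -0.78 (SE 0.35) did not pass the test of the difference itself (adjusted p = 0.999 in limma). All BT-20 values of SLC6A9 were below 5. For SLC38A2, Hs578T had -0.04 and -0.41, BT-20 had 0.13 and 0.11, and the difference of -0.34 (SE 0.23) did not pass either (adjusted p = 0.999 in limma).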

How the results depend on the processing

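Under the alternatives, 7 members were called higher in Hs578T than in BT-20 in each setting (7 to 8 called in either direction when 1 array was left out), and 0 members were called for M against U or for ODN2006 against its control. For the ODN arrays against M and U of set 2 in Hs578T, 1 member was called with trended and robust variance (SLC3A2, adjusted p = 0.0404) and 0 to 1 when an array was left out. Without the BT-20 array with M of set 2, SLC7A1 passed between the lines (-0.43, adjusted p = 0.0135). Centring on housekeeping genes moved the median of all genes between the lines to 0.11, against -0.09 before, with 4222 genes higher and 3422 lower, and SLC7A1 to -0.06.

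With the replicate block, that is set within line, 0 genes were called for M against U, and SLC1A4 in Hs578T stood at -0.52 (SE 0.17, adjusted p = 0.312). The block changed no call of a member. Without the block, leaving out 1 array moved the genes at an unadjusted p under 0.05 to 345 to 975 in Hs578T, 159 to 688 in BT-20, 330 to 791 averaged and 200 to 670 for the contrast of the lines.

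Other counts over all genes moved by more than 1.5 times. For ODN2006 against its control, 150 genes were called without the filter, 0 with trended variance, 0 from the ODN arrays alone and 0 to 2 when 1 array was left out. For the ODN arrays in Hs578T, 1444 were called with trended variance, 1570 against both sets and 50 to 1510 when 1 array was left out, with 50 without the ODN2006 array. In BT-20, 4 were called without the filter and 7 against both sets.

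Differences that no test called changed sign as follows. With housekeeping centring, M against U was 0.085 for SLC1A5 in Hs578T, and the ODN difference of SLC1A5 in BT-20 was 0.0039. With the mean of all probe sets, SLC38A1 was at 0.0087 for ODN2006 against its control, and in BT-20 the ODN difference was -0.0454 for SLC38A1 and -0.11 for SLC7A1. Against both sets, the ODN difference was -0.029 for SLC38A2 in Hs578T and -0.13 for SLC1A4, -0.068 for SLC38A1 and -0.15 for SLC7A1 in BT-20. The difference of SLC38A1 between the lines, by contrast, was called, and there 1 of its other probe sets gave the opposite sign at -0.14. The cause was not tested.

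Leaving out 1 array at a time turned the sign of further small differences. For M against U in Hs578T the values ran from -0.066 to 0.055 for SLC1A5, -0.15 to 0.24 for SLC3A2 and -0.27 to 0.011 for SLC38A1. In BT-20 they ran from -0.10 to 0.53 for SLC1A4, -0.048 to 0.32 for SLC1A5, -0.10 to 0.12 for SLC38A1, -0.11 to 0.61 for SLC7A1 and -0.17 to 0.25 for SLC7A5. For the contrast of the lines they ran from -0.28 to 0.0028 for SLC38A1 and -0.32 to 0.043 for SLC1A5. For ODN2006 against its control they ran from -0.21 to 0.024 for SLC1A4, -0.24 to 0.14 for SLC7A5 and -0.026 to 0.18 for SLC3A2. For the ODN arrays against M and U of set 2 they ran in Hs578T from -0.097 to 0.12 for SLC1A5, -0.13 to 0.28 for SLC38A2, -0.25 to 0.25 for SLC7A5 and -0.54 to 0.32 for SLC6A9, and in BT-20 from -0.87 to 0.0012 for SLC6A9 and -0.036 to 0.12 for SLC38A1. With 2 arrays a group, differences of this size cannot be resolved.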
